A study of Homo sapiens with 12 samples.

Results

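MYC is a transcription factor that pairs with MAX, and its targets include many of the genes by which a cell makes ribosomes. The genes described here are MYC, MAX and 46 factors of ribosome production, 48 genes of the 22545 in the count table, chosen by name. All 48 were found and all 48 were abundant enough to be tested, among 14207 tested genes. The libraries are RNA-seq of HaCaT, an immortalised line of human skin keratinocytes, with 3 libraries in each of 4 groups. 1 group was left untreated, 1 received M5 alone, and the remaining groups received M5 together with either lefamulin or retapamulin. M5 is, in this field, the usual name of a cytokine mix used to bring keratinocytes to a psoriasis-like state, but the labels do not state its composition. Lefamulin and retapamulin are pleuromutilins, antibiotics that bind the bacterial ribosome. All 12 libraries carry the genotype label WT and the same batch label. The labels give no dose, time or solvent, so the 2 compounds are compared as given, and no group received a compound without M5. Nothing in the labels says whether the 3 libraries of a group came from separate cultures, and p-values measure only the spread between these libraries, which may be technical. HaCaT is a single cell line, and the extraction text in the labels speaks of mouse epidermis, which does not match it.

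A ribosome is built from ribosomal RNA and ribosomal proteins. RNA polymerase I transcribes the long precursor RNA in the nucleolus, small nucleolar ribonucleoproteins (snoRNPs) modify it, and sets of processing factors cut it and fold it into the small and the large subunit. In skin, as elsewhere, this production runs with growth and division, and MYC is a well-known activator of it. The factors are taken below in that order: MYC and MAX, RNA polymerase I transcription, nucleolar chaperones, snoRNP proteins, small subunit processing and large subunit processing.

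MYC and MAX bind the E-box, whose letters are CACGTG and read the same on both strands. RefSeq (GRCh38.p14) promoter windows, 300 bases around each start, were available for 41 of the 48 genes by symbol (MYC, POLR1E, NOLC1, NOP58, RRP12, BOP1 and RRP1B were not matched). Of those 41 genes, 17 (41.5%) had CACGTG in a window. Among tested genes with a window, 1349 of 11129 (12.1%) had it. Counted by window, 17 of the 51 windows of those 41 genes (33.3%) had it, and 7.26% of all 35116 windows did. The letters CCGGAAG, which do not overlap CACGTG, were searched on both strands as CCGGAAG or CTTCCGG. They were in the windows of 16 genes (39.0%) and of 21.8% of tested genes with a window. Counted by window, 18 of the 51 (35.3%) had them, beside 10.26% of all windows. Below are the 250 bases before the start of 5 genes that the results turn on, 5′ to 3′, with CACGTG in capitals. UTP4 and NAT10 were among the strongest falls with both compounds, DDX21 rose most with M5, and NOP10 rose with both compounds. The motif begins 16 bases before the start in UTP4, 15 in NAT10, 31 in DDX21, and 170 and 11 in NOP10. NOP56 is shown as a gene without the letters: it and NPM3 had the deepest falls with lefamulin among genes with a window, and CACGTG is in neither window.
UTP4, chr16:69132399-69132648, plus strand: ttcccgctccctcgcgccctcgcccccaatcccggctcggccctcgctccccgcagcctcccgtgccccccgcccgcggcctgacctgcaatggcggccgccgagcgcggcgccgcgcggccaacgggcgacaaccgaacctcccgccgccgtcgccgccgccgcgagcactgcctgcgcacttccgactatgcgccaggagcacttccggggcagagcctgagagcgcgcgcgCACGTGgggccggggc
NAT10, chr11:34105379-34105628, plus strand: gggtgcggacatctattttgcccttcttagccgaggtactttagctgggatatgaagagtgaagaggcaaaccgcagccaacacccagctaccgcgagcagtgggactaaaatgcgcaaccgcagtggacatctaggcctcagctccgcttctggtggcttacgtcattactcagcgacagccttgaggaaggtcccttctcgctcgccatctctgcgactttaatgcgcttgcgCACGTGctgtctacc
DDX21, chr10:68956397-68956646, plus strand: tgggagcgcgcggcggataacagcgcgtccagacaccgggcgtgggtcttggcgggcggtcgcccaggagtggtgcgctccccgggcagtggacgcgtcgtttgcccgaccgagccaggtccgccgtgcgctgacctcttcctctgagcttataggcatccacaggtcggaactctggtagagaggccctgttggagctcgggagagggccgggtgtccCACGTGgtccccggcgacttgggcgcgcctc
NOP10, chr15:34343137-34343386, minus strand: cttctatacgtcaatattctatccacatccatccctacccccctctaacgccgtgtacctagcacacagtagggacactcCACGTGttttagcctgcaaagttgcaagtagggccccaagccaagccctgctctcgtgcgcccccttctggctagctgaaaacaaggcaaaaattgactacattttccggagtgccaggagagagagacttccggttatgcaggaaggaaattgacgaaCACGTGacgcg
NOP56, chr20:2652382-2652631, plus strand: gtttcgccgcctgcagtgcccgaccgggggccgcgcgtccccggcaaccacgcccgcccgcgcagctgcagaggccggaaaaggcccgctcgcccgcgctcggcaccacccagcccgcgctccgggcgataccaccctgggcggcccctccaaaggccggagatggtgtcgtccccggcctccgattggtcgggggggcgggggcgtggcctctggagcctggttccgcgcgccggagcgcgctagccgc
Genes with and without the motif overlapped in response. The median log2 fold change with lefamulin against M5 was -0.52 over the 17 genes with it and -0.41 over the 24 without it, and the ranges overlapped (-0.81 to 0.29 against -1.06 to 0.39). With retapamulin the medians were -0.61 and -0.52, with ranges of -0.98 to 0.435 and -1.13 to 0.75. With M5 against untreated they were 0.198 and 0.139, with ranges of -0.033 to 0.653 and -0.27 to 0.289. These are descriptions of letters in windows, not of binding.

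The 48 genes took a smaller part of all reads when either compound was present. Their summed share of counts was 0.809% ± 0.00933 (SD, n = 3) in untreated cells, 0.852% ± 0.00729 with M5, 0.570% ± 0.00293 with lefamulin and M5, and 0.529% ± 0.00556 with retapamulin and M5. The shares of the 4 groups did not overlap. Without NPM1 and NCL, the most abundant, the shares were 0.587% ± 0.0043, 0.624% ± 0.00383, 0.431% ± 0.000907 and 0.394% ± 0.00225. In bulk RNA, fewer cells of a kind and less RNA per cell cannot be told apart.

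M5 against untreated asks how the cytokine mix moved these genes. A gene is called here when its Benjamini-Hochberg adjusted p from edgeR's quasi-likelihood test is under 0.05. With M5, 32 of the 48 were called higher and 2 lower, beside 28.3% of all tested genes called higher and 26.9% called lower. The median log2 fold change was 0.16 over the 48 and -0.02 over all genes. The rises were small, and the number of them rested on the scaling. On library totals without TMM (trimmed mean of M values) factors, 16 were called higher and 4 lower, because the whole distribution sat lower there (all-gene median -0.14), and 31.5% of all called genes were higher in place of 51.3%. The distance between the 48 and all genes was 0.18 on both scales. Across all genes the M5 change also went with abundance (Spearman rho 0.34 across genes), and these 48 were abundant, with a median of 101 counts scaled to a common library size, CPM, against 24.9 over all tested genes. Its part in the rise was not tested.

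Each compound with M5 against M5 alone asks what the compound changed in the presence of the mix. These 2 comparisons share the M5 libraries. With lefamulin, 43 of the 48 were called lower and 3 higher, beside 34.3% of all tested genes called lower and 33.6% called higher. With retapamulin, 44 were called lower and 3 higher, beside 38.0% and 34.1% of all tested genes. The median log2 fold change was -0.46 with lefamulin and -0.54 with retapamulin, against medians over all genes of 0.00 and -0.05. The same 43 genes were lower with both compounds, and 30 of them had been called higher with M5. Shares of all tested genes with these patterns were not computed. The M5 libraries also enter the M5 rise and both falls, so errors in them favour such a pattern. As given above, fewer genes were called higher with M5 on library totals. Called lower by at least 1.5-fold were 15 genes with lefamulin, where 12.1% of all tested genes were, and 21 with retapamulin, where 17.7% were. On library totals the medians were -0.51 and -0.68, with all-gene medians of -0.05 and -0.19, so the fall relative to all genes was as large.

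**Figure D1:**
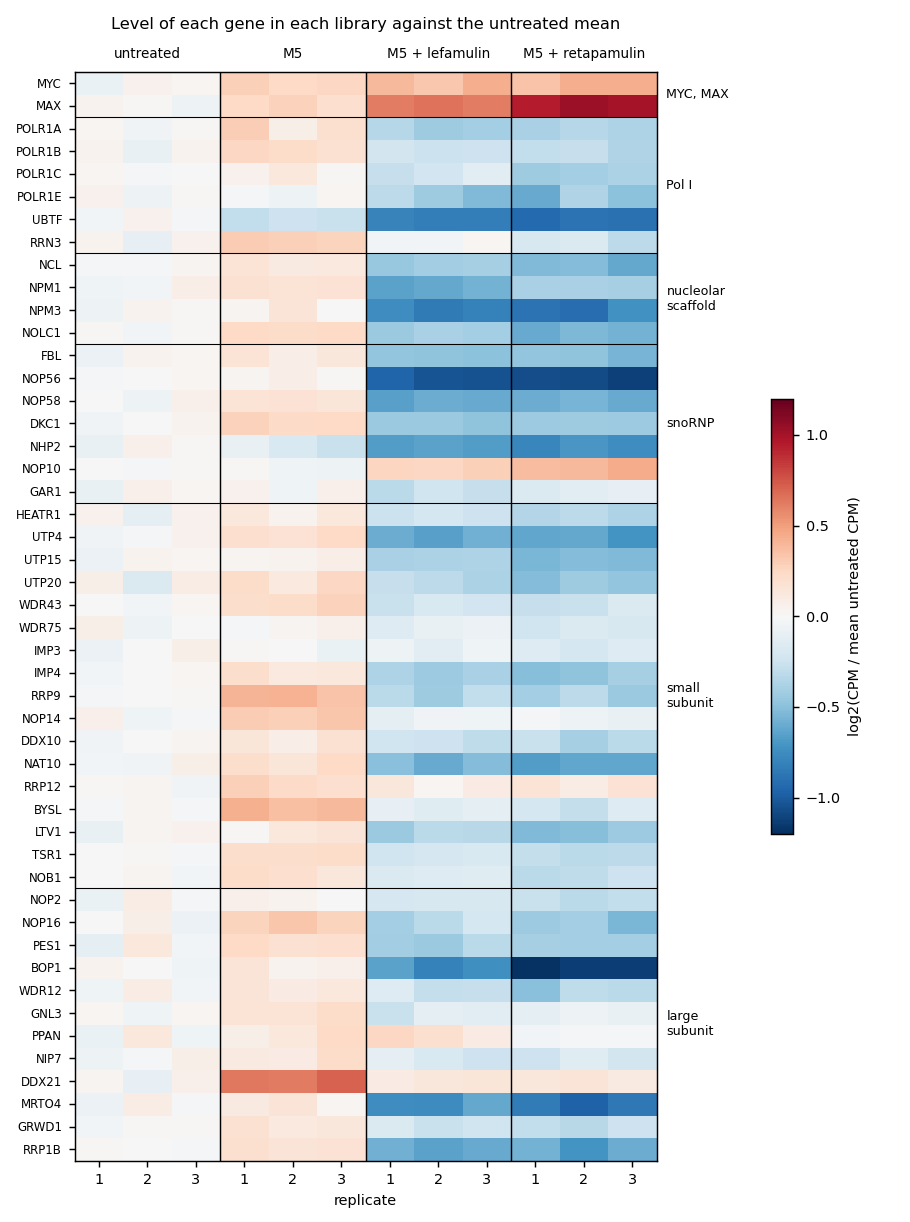
Log2 ratio of each gene's CPM to its mean in the untreated libraries, with 1 row per gene, ordered by role, and 1 column per library. Most rows turn from pale red with M5 (median log2 fold change 0.16 on TMM-scaled CPM, 0.04 on library totals) to blue with either compound, and MYC, MAX and NOP10 are red with both.

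Against untreated cells, the levels with the compounds were also lower. With lefamulin and M5, 39 were called lower and 4 higher than untreated, beside 37.1% and 36.9% of all tested genes. With retapamulin and M5, 40 were called lower and 5 higher, beside 40.9% and 37.6%. These comparisons share the untreated libraries and the compound libraries with those above. On library totals 38.6% and 33.7% of all called genes were higher in these comparisons, where TMM gave 49.9% and 47.8%. On TMM-scaled CPM the mean was highest with M5 for 40 of the 48 genes and lowest with retapamulin for 36. The same counts over all tested genes were not made. The change from untreated to M5 was not called for 14 of the 48, and its sign turned for 11 on library totals.

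Retapamulin against lefamulin, both with M5, is the direct comparison of the compounds. Here 12 of the 48 were called lower with retapamulin and 4 higher, beside 18.8% and 21.2% of all tested genes, and 32 were not called. The 4 higher were MAX, NPM1, NOP10 and GAR1, and the calls of NOP10 and GAR1 were lost on library totals. The count called lower was 7 without the third lefamulin library, 7 with relative-log-expression (RLE) size factors, and 34 on library totals. The share of all called genes that were higher was 53.0% with TMM, 63.2% with RLE and 27.2% on library totals. The median over the 48, -0.07, lay 0.06 under that of all genes under each of these scalings. Across all genes the difference between the compounds went with abundance (Spearman rho 0.34), whose part was not tested.

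**Figure D2:**
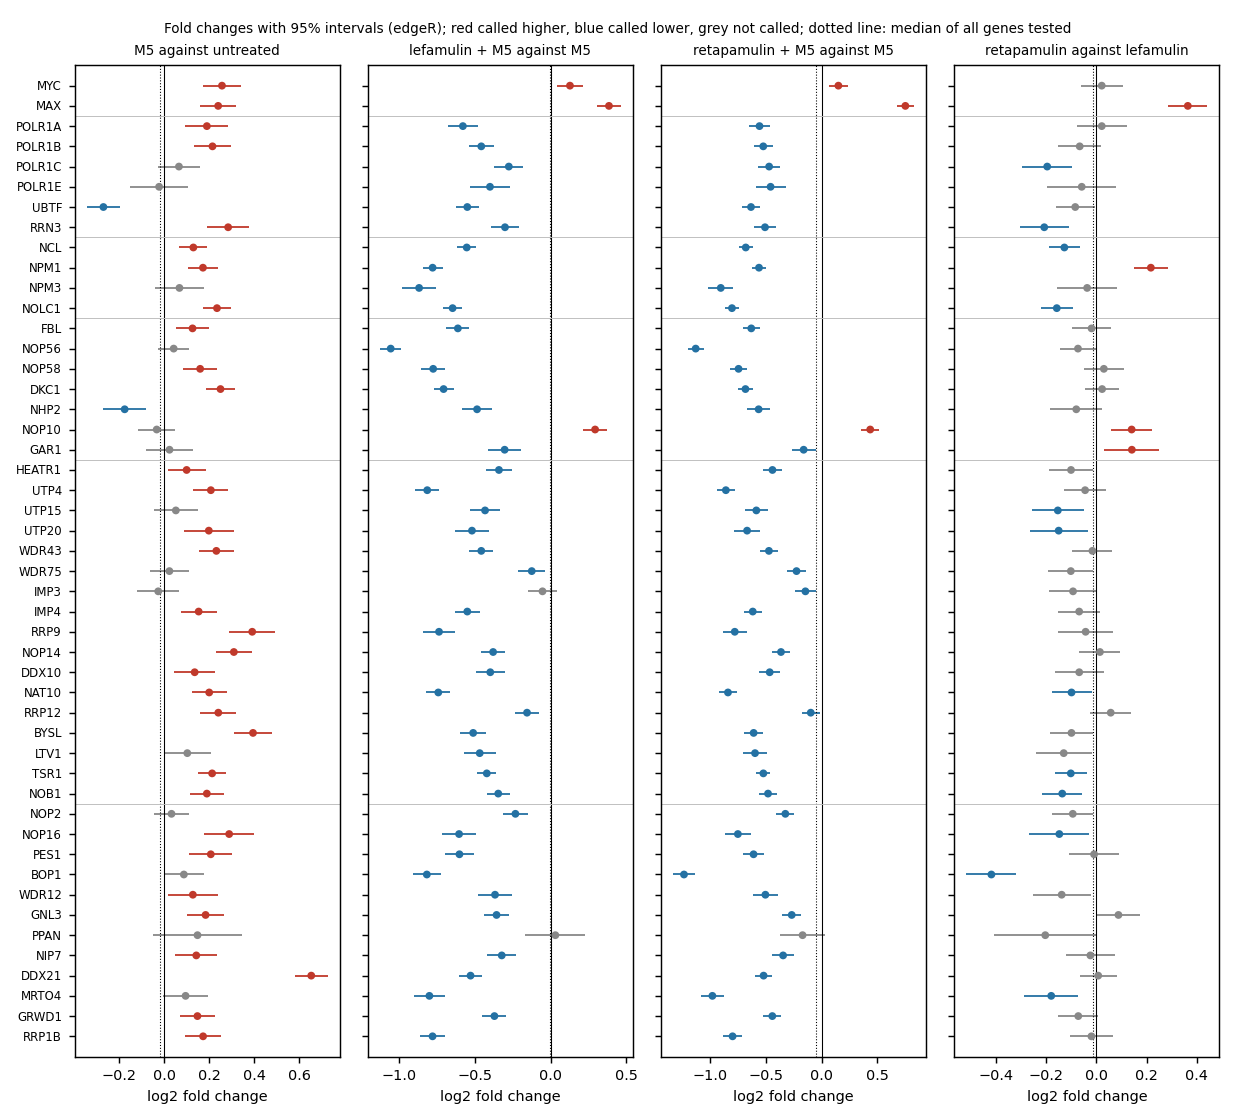
Log2 fold change of each gene with its 95% interval from edgeR, for M5 against untreated, each compound against M5, and retapamulin against lefamulin. In the middle panels 43 and 44 of the 48 intervals belong to genes called lower. In the right panel most intervals lie near 0. There the number of genes called rests on the scaling, and the sign turned for 8 of the 48 on library totals.

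MYC RNA was lowest in untreated cells, and the steps between the treated groups were small. It stood at 94.3, 103 and 101 CPM in untreated libraries, 121, 118 and 118 with M5, 130, 125 and 135 with lefamulin and M5, and 126, 134 and 135 with retapamulin and M5. The M5 libraries were all above the untreated ones, and every compound library was above every M5 library. The log2 fold change was 0.26 (SE 0.04, adjusted p = 9.93e-06) with M5, 0.13 (SE 0.04, adjusted p = 0.00765) with lefamulin against M5, and 0.15 (SE 0.04, adjusted p = 0.00219) with retapamulin against M5. The last 2 rest on the scaling: on library totals they were 0.08 (adjusted p = 0.0604) and 0.01 (adjusted p = 0.759). Without the third lefamulin library the first of them was 0.10 (adjusted p = 0.0593).

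MAX, the partner that MYC needs to bind DNA, rose further. Its level was 77.4, 76.3 and 72.3 CPM untreated, 89.0, 91.1 and 86.8 with M5, 115, 118 and 116 with lefamulin, and 145, 154 and 150 with retapamulin. The 4 groups did not overlap. The log2 fold change against M5 was 0.39 (SE 0.04, adjusted p = 2.94e-09) with lefamulin and 0.75 (SE 0.04, adjusted p = 6.73e-15) with retapamulin, and retapamulin stood 0.36 above lefamulin (SE 0.04, adjusted p = 5.02e-08). Per length, as deposited FPKM (scaled for transcript length and library size), the MAX to MYC ratio was 1.07 ± 0.0781 (SD, n = 3) untreated, 1.06 ± 0.0314 with M5, 1.26 ± 0.0645 with lefamulin and 1.60 ± 0.0253 with retapamulin. A ratio within a library does not depend on the scaling, and it shows unequal change of the pair.

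Of the 15 tested genes of the wider MYC network, 6 were called higher (40.0%) and 4 lower (26.7%) with each compound against M5, near the shares of all tested genes (33.6% and 34.3% with lefamulin, 34.1% and 38.0% with retapamulin). MXD1, MXI1, MXD3, MXD4, MNT and MGA encode proteins that pair with MAX in place of MYC and repress transcription, and they did not move as a group. MXD1 had the largest rise of the network with both compounds. It was at 13.9, 9.88 and 13.0 CPM untreated, 30.0, 27.3 and 27.4 with M5, 66.8, 71.6 and 65.8 with lefamulin, and 80.7, 85.6 and 81.6 with retapamulin. The groups were apart at every step, and the log2 fold change against M5 was 1.27 (SE 0.07) and 1.55 (SE 0.07). The other 5 are named here after their values were seen. MNT averaged 36.1 ± 1.54 CPM (SD, n = 3) with M5, 79.1 ± 0.913 with lefamulin and 86.0 ± 3.85 with retapamulin. MXD4 averaged 22.1 ± 0.769, 47.3 ± 2.97 and 53.8 ± 0.515 CPM in the same groups. MXI1 averaged 31.7 ± 0.676, 38.6 ± 2.59 and 33.5 ± 1.47 CPM, and was called higher with lefamulin (0.28) but not with retapamulin (0.08, adjusted p = 0.216). MGA, at 40.8 ± 2.72, 43.7 ± 1.92 and 39.1 ± 0.252 CPM, was called with neither (adjusted p = 0.154 and 0.383). MXD3, at 7.44 ± 2.06, 6.87 ± 1.09 and 5.35 ± 1.32 CPM, was called lower with retapamulin (-0.48, adjusted p = 0.0241) with libraries that overlapped those of M5, and was not called with lefamulin (-0.11, adjusted p = 0.588). The largest falls were in RUVBL1 with lefamulin (log2 fold change -0.76) and RUVBL2 with retapamulin (-0.80), helicase-like proteins that also serve snoRNP assembly.

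**Figure D3:**
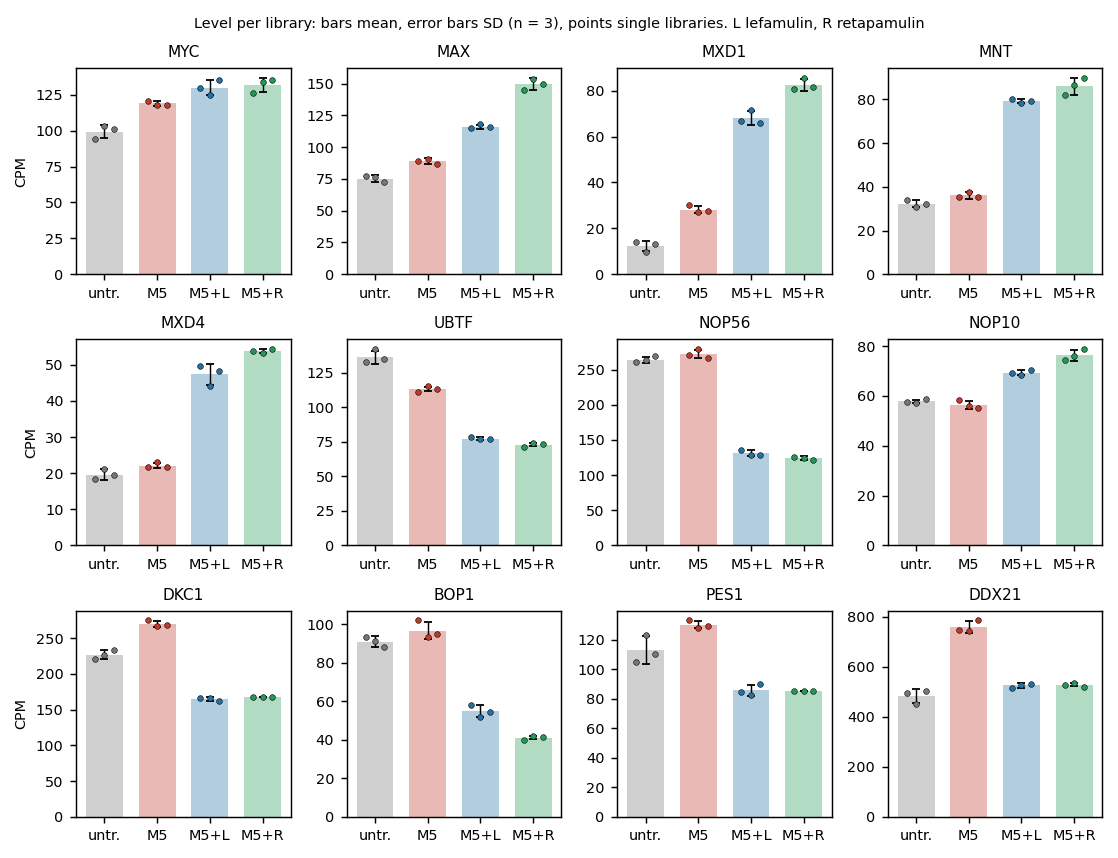
TMM-scaled CPM of 12 genes in each library, with bars for the mean of 3 libraries, error bars for the SD and points for single libraries. MAX, MXD1, MNT, MXD4 and NOP10 climb with the compounds, UBTF, NOP56, DKC1, BOP1 and PES1 drop, and DDX21 peaks with M5.

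All 6 RNA polymerase I genes were called lower with each compound, beside 34.3% of all tested genes with lefamulin and 38.0% with retapamulin. Their median log2 fold changes were -0.43 and -0.52. With M5, 3 of the 6 had been called higher and 1 lower, beside 28.3% and 26.9% of all tested genes. On library totals 2 were called higher and 1 lower. UBTF, which binds ribosomal DNA and keeps its repeats open, was the gene of the class that fell with M5. Its level was 133, 142 and 135 CPM untreated, 111, 115 and 113 with M5, 78.4, 76.8 and 76.7 with lefamulin, and 71.4, 73.8 and 73.5 with retapamulin. Each step was a separate range. UBTF changed on the log2 scale by -0.27 (SE 0.04, adjusted p = 6.63e-07) with M5, and against M5 it was -0.55 (SE 0.04) with lefamulin and -0.63 (SE 0.04, adjusted p = 1.12e-13) with retapamulin.

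RRN3, the initiation factor that recruits the polymerase, had the largest M5 rise of the class. It was at 63.1, 57.0 and 63.1 CPM untreated, 75.2, 74.4 and 73.6 with M5, 59.7, 59.6 and 61.9 with lefamulin, and 53.5, 54.2 and 49.2 with retapamulin. Lefamulin libraries overlapped the untreated range, and retapamulin libraries lay below both. The change with M5 was 0.28 (SE 0.05, adjusted p = 9.75e-06), and retapamulin was 0.21 lower than lefamulin (log2 fold change -0.21, SE 0.05, adjusted p = 0.00109). RRN3 has pseudogene copies, and the sources used here do not say how reads shared with them were counted.

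POLR1A, the largest catalytic subunit, had the class's largest fall with lefamulin. Its level was 81.6, 77.8 and 81.0 CPM untreated, 98.3, 84.1 and 91.8 with M5, 63.3, 59.8 and 60.6 with lefamulin, and 61.0, 63.4 and 61.9 with retapamulin. The compound libraries lay below all others and overlapped each other. POLR1A changed against M5 by a log2 fold change of -0.58 (SE 0.05, adjusted p = 8.47e-11) with lefamulin and -0.56 (SE 0.05) with retapamulin, and the difference between the compounds, 0.02, was not called (adjusted p = 0.763, 95% interval -0.08 to 0.12). Of 9 other RNA polymerase I factors, 4 were called lower and 2 higher with each compound, which is 44.4% lower and 22.2% higher, beside 34.3% lower and 33.6% higher over all tested genes with lefamulin and 38.0% and 34.1% with retapamulin. Their medians were -0.08 and -0.07. TAF1B, of the selectivity factor, had the largest rise (0.51 and 0.63).

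The nucleolar chaperones and scaffolds NCL, NPM1, NPM3 and NOLC1 were all called lower with each compound (medians -0.71 and -0.74). Of all tested genes, 34.3% were called lower with lefamulin and 38.0% with retapamulin. Per length, NPM1 was the most abundant of the 48 genes in untreated cells at 527 FPKM and NCL came next at 276. NPM1, a histone and ribosome chaperone of the nucleolus, stood at 1000, 1020 and 1100 CPM untreated, 1180, 1160 and 1170 with M5, 667, 681 and 704 with lefamulin, and 797, 798 and 790 with retapamulin. Here the compounds differed the other way from NCL and NOLC1: retapamulin libraries were all above lefamulin libraries. Against M5 the log2 fold change was -0.78 (SE 0.03) with lefamulin and -0.56 (SE 0.03) with retapamulin, and retapamulin was 0.22 above lefamulin (SE 0.03, adjusted p = 9e-06). NPM1 also has many pseudogene copies.

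NPM3, a small relative of NPM1, had the deepest falls of the class. It was at 50.4, 54.1 and 52.8 CPM untreated, 53.8, 58.5 and 52.8 with M5, 31.4, 29.1 and 29.9 with lefamulin, and 28.5, 27.9 and 31.8 with retapamulin. The compound libraries overlapped each other and lay far below the rest, with log2 fold changes against M5 of -0.87 (SE 0.05, adjusted p = 6.5e-13) and -0.91 (SE 0.06, adjusted p = 2.4e-13). NOLC1, which links snoRNPs with RNA polymerase I, had the class's largest rise with M5. It was at 359, 348 and 359 CPM untreated, 419, 415 and 420 with M5, 261, 272 and 269 with lefamulin, and 233, 245 and 240 with retapamulin. No 2 groups overlapped. Its log2 fold change was 0.23 (SE 0.03, adjusted p = 3.78e-07) with M5 and -0.16 (SE 0.03, adjusted p = 0.00024) for retapamulin against lefamulin. The NCL to NPM1 ratio of FPKM was 0.524 ± 0.0159 (SD, n = 3) untreated and 0.508 ± 0.00753 with M5. It was 0.594 ± 0.00638 with lefamulin and 0.468 ± 0.0138 with retapamulin, so the order of the pair's falls differed between the compounds.

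Of 7 snoRNP proteins, 6 were called lower and 1 higher with each compound, and the medians were -0.61 and -0.63. Of all tested genes, 34.3% were called lower and 33.6% higher with lefamulin, and 38.0% and 34.1% with retapamulin. Box C/D particles methylate ribosomal RNA and hold FBL, the methyltransferase, with NOP56 and NOP58. NOP56 had the largest fall of all 48 genes with lefamulin. Its level was 261, 263 and 269 CPM untreated, 270, 279 and 267 with M5, 136, 129 and 128 with lefamulin, and 126, 125 and 121 with retapamulin. Untreated and M5 libraries overlapped, and all compound libraries lay far below both. The log2 fold change against M5 was -1.06 (SE 0.03, adjusted p = 1.35e-18) with lefamulin and -1.13 (SE 0.03, adjusted p = 2.57e-19) with retapamulin. NOP58 (-0.78 and -0.75) and FBL (-0.61 and -0.63) fell less. The NOP56 to NOP58 ratio of FPKM was 2.16 ± 0.068 (SD, n = 3) untreated and was already lower with M5 alone, at 1.98 ± 0.0276. It was 1.64 ± 0.0935 with lefamulin and 1.52 ± 0.0294 with retapamulin.

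Box H/ACA particles convert uridines to pseudouridine and hold DKC1, the enzyme, with NHP2, NOP10 and GAR1. The 4 core proteins did not move as a block. DKC1 was at 221, 226 and 234 CPM untreated, 275, 267 and 268 with M5, 167, 167 and 162 with lefamulin, and 168, 168 and 168 with retapamulin. It rose with M5 by 0.25 (SE 0.03, adjusted p = 2.94e-07) and fell against M5 by 0.71 and 0.68 on the log2 scale. NOP10, named here after its values were seen, went the other way. It was at 57.7, 57.2 and 58.6 CPM untreated, 58.3, 55.9 and 55.3 with M5, 69.1, 68.5 and 70.4 with lefamulin, and 74.5, 75.9 and 78.8 with retapamulin. Both compound groups lay above all other libraries, with log2 fold changes against M5 of 0.29 (SE 0.04, adjusted p = 4.46e-07) and 0.43 (SE 0.04, adjusted p = 4.48e-10).

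The NOP10 to DKC1 ratio of FPKM was 1.49 ± 0.0328 (SD, n = 3) untreated, 1.22 ± 0.0182 with M5, 2.45 ± 0.0726 with lefamulin and 2.65 ± 0.0789 with retapamulin. GAR1 fell least of the 6. Its level was 35.7, 39.6 and 38.7 CPM untreated, 39.5, 36.6 and 39.7 with M5, 30.4, 32.2 and 31.3 with lefamulin, and 33.6, 34.5 and 35.4 with retapamulin. Lefamulin libraries were the lowest, and retapamulin libraries lay just under the untreated range. Retapamulin against lefamulin was 0.14 (SE 0.05, adjusted p = 0.0363), a call lost on library totals (0.05, adjusted p = 0.426) and without lefamulin library 1 or 3 (adjusted p = 0.136 and 0.0779) or retapamulin library 2 or 3 (adjusted p = 0.079 and 0.122). Its fall against M5 was -0.30 with lefamulin and -0.16 with retapamulin, and DESeq2 did not call the latter (adjusted p = 0.0576). NHP2 fell with M5 (-0.18, adjusted p = 0.0026) and with each compound (-0.49 and -0.57).

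In small subunit processing, 16 of 17 genes were called lower with lefamulin and 17 of 17 with retapamulin, beside 34.3% and 38.0% of all tested genes. The medians were -0.43 and -0.52. With M5, 13 had been called higher, beside 28.3% of all tested genes, but 8 were on library totals. UTP4, part of the first complex to load on the precursor RNA, fell most. Its level was 149, 152 and 159 CPM untreated, 177, 174 and 182 with M5, 102, 97.7 and 103 with lefamulin, and 99.5, 101 and 93.1 with retapamulin. The compound libraries overlapped each other and lay below all untreated ones. Against M5 the log2 fold change was -0.81 (SE 0.04, adjusted p = 2.67e-15) and -0.86 (SE 0.04, adjusted p = 7.23e-16). NAT10, which acetylates ribosomal RNA, followed at -0.74 and -0.84, and RRP9, a protein of the U3 snoRNP, at -0.74 and -0.78.

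BYSL, a late small subunit assembly factor, had the class's largest rise with M5. It was at 61.6, 63.9 and 61.9 CPM untreated, 84.0, 80.5 and 82.0 with M5, 58.4, 56.6 and 57.9 with lefamulin, and 54.0, 51.3 and 56.1 with retapamulin. It rose by 0.39 (SE 0.04, adjusted p = 9.05e-09) with M5, and with each compound it lay below the untreated range. UTP15, of the same early complex as UTP4, had the class's largest difference between the compounds. It was at 35.1, 38.0 and 37.4 CPM untreated, 37.7, 38.0 and 38.9 with M5, 28.0, 28.3 and 28.5 with lefamulin, and 25.1, 25.6 and 25.6 with retapamulin. The 2 compound groups did not overlap (log2 fold change -0.15, SE 0.05, adjusted p = 0.0179), but the call was lost with RLE size factors (-0.12, adjusted p = 0.0631), with DESeq2 (-0.11, adjusted p = 0.128), with no filter on low counts (-0.15, adjusted p = 0.0636), and without the third lefamulin library (adjusted p = 0.0544) or the first retapamulin library (adjusted p = 0.0607).

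Among the smallest changes of the class were those of IMP3, a U3 snoRNP protein, and RRP12, which helps subunits leave the nucleus. IMP3 was not called with lefamulin (-0.05, adjusted p = 0.311) and was -0.15 with retapamulin. With DESeq2 the latter was -0.11 and not called (adjusted p = 0.0528). RRP12 was -0.16 and -0.10 against M5. Its call with retapamulin was lost with RLE factors (-0.06, adjusted p = 0.148), DESeq2 (adjusted p = 0.169) and a filter of 1 CPM (adjusted p = 0.142), and without M5 library 1 (adjusted p = 0.129) or retapamulin library 2 (adjusted p = 0.144). With retapamulin and M5 it was called higher than untreated (0.14, adjusted p = 0.00209), and on library totals it was called lower (-0.11, adjusted p = 0.0138). WDR75, an early assembly factor, was -0.12 with lefamulin against M5, a call lost without lefamulin library 1 (-0.10, adjusted p = 0.0678). HEATR1 was called higher with M5 (0.10, adjusted p = 0.0409) with libraries that overlapped the untreated ones, and its sign turned on library totals (-0.02, adjusted p = 0.696).

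In large subunit processing, 11 of 12 genes were called lower with each compound (medians -0.45 and -0.51), beside 34.3% and 38.0% of all tested genes. With M5, 8 of the 12 had been called higher, beside 28.3% of all tested genes, but 2 were on library totals. PPAN was the exception, at 8.05 to 9.27 CPM in group means, with changes of 0.03 and -0.17 that were not called. BOP1, which forms the PeBoW complex with PES1 and WDR12, had the largest fall of all 48 with retapamulin. Its level was 93.5, 91.4 and 88.0 CPM untreated, 102, 93.6 and 94.9 with M5, 58.2, 51.9 and 54.5 with lefamulin, and 40.0, 41.7 and 41.5 with retapamulin. Every retapamulin library lay below every lefamulin library, and both below the rest. Against M5 the log2 fold change was -0.82 (SE 0.05, adjusted p = 5.4e-14) with lefamulin and -1.24 (SE 0.05, adjusted p = 1.92e-17) with retapamulin, and retapamulin against lefamulin was -0.42 (SE 0.05, adjusted p = 2.56e-07).

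Its partners had smaller falls. PES1 was -0.60 and -0.61 against M5, and WDR12 -0.37 and -0.50. The difference between the compounds was not called for PES1 (-0.01, 95% interval -0.11 to 0.09) or WDR12 (-0.14, 95% interval -0.25 to -0.02, adjusted p = 0.0529). The BOP1 to PES1 ratio of FPKM was 0.95 ± 0.0883 (SD, n = 3) untreated and 0.870 ± 0.0228 with M5. It was 0.750 ± 0.0505 with lefamulin and 0.564 ± 0.0135 with retapamulin. MRTO4, a large subunit assembly factor related to ribosomal stalk proteins, and RRP1B, a nucleolar protein, also fell deeply (-0.80 and -0.98, and -0.78 and -0.80).

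DDX21, an RNA helicase of the nucleolus, rose most with M5. It was at 494, 450 and 503 CPM untreated, 747, 743 and 786 with M5, 516, 529 and 533 with lefamulin, and 529, 536 and 521 with retapamulin. M5 libraries stood far above all others. The log2 fold change was 0.65 (SE 0.04, adjusted p = 5.75e-14) with M5, and -0.53 (SE 0.04) and -0.52 (SE 0.04) with the compounds against M5. With the compounds it stayed 0.12 and 0.13 above untreated (SE 0.04, adjusted p = 0.00284 and 0.00166), but on library totals the sign turned (-0.04, adjusted p = 0.273, and -0.12, adjusted p = 0.00182).

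Factors of subunit processing outside the 48 were also called lower more often than higher. All shares here stand beside 34.3% lower and 33.6% higher over all tested genes with lefamulin, and 38.0% and 34.1% with retapamulin. Of 43 other small subunit factors, 31 (72.1%) were called lower and 4 higher with lefamulin, and 30 (69.8%) and 3 with retapamulin, at medians of -0.28 and -0.31. Of 43 other large subunit factors, 35 (81.4%) were lower and 3 higher with lefamulin, and 34 (79.1%) and 3 with retapamulin, at medians of -0.30 and -0.34. WDR3 and NLE1 fell furthest with lefamulin (-0.82 and -0.86), and UTP25 and TEX10 had the largest rises with it (0.52 and 0.48). Of 13 genes of the RNA exosome, which trims precursors, 9 (69.2%) were called lower and 2 higher with each compound, and EXOSC8 rose (0.72 and 0.57). Of 21 genes of RNA polymerase III, which makes 5S ribosomal RNA and transfer RNA, 13 (61.9%) were lower and 4 higher with lefamulin and 14 (66.7%) and 5 with retapamulin, and POLR3D rose (0.72 and 1.07).

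The ribosomal proteins moved less. Of 79 cytosolic ribosomal protein genes, 59 (74.7%) were called lower with lefamulin at a median of -0.14, beside 34.3% of all tested genes. With retapamulin 28 (35.4%) were called lower and 12 (15.2%) higher, beside 38.0% and 34.1% of all tested genes. Their median with retapamulin was -0.03, beside -0.05 over all genes. With RLE factors the retapamulin median was 0.001, and on library totals it was -0.17 with 66 called lower. Against lefamulin, retapamulin had 52 of the 79 (65.8%) called higher at a median of 0.11, beside 21.2% of all tested genes. With RLE factors 64 were higher (median 0.15), and on library totals 15 were higher and 6 lower (median 0.02). In the same comparison the median of the 48 genes was -0.07 with TMM and -0.16 on library totals. The fold change of this comparison went with abundance across all genes (Spearman rho 0.34), and the part of abundance was not tested. Of 12 transcripts that host small nucleolar RNAs, 11 (91.7%) were called lower with lefamulin and 8 (66.7%) with retapamulin, beside 34.3% and 38.0% of all tested genes. Of 17 other known MYC targets of growth and metabolism, 13 (76.5%) were called lower with lefamulin and 14 (82.4%) with retapamulin, beside the same all-gene shares. Their medians were -0.60 and -0.59. SHMT2, a mitochondrial enzyme of serine and glycine metabolism, rose by 0.50 with each. TERT, the catalytic subunit of telomerase, fell most, averaging 2.19 ± 0.292 CPM (SD, n = 3) in M5 libraries, 0.244 ± 0.0355 when lefamulin was added and 0.128 ± 0.0679 when retapamulin was.

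**Figure D4:**
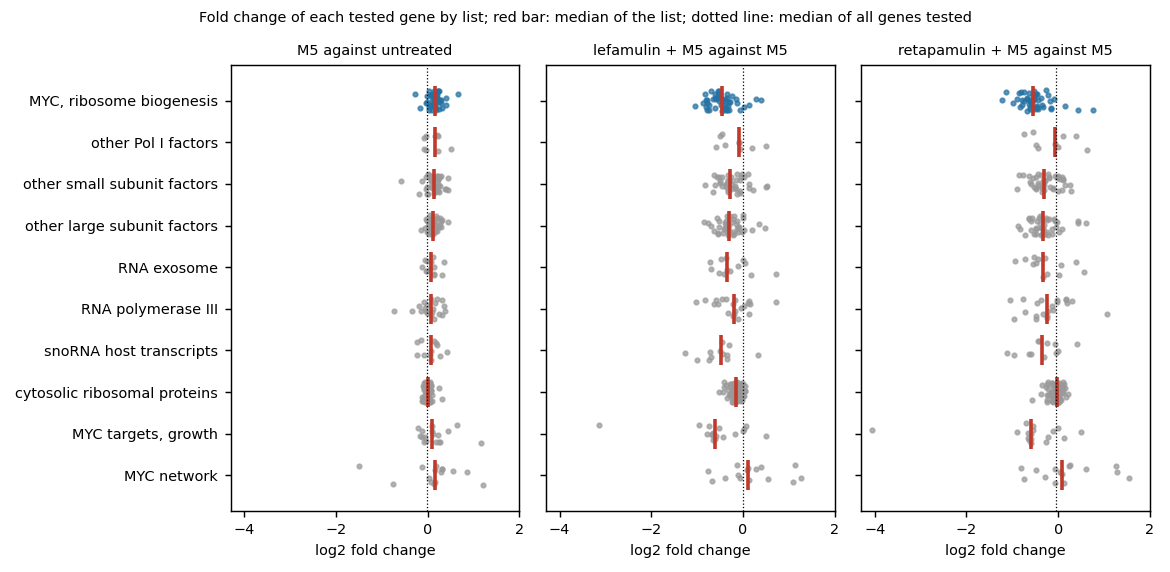
Log2 fold change of each tested gene in 10 lists, with a red bar at each list's median and a dotted line at the median of all tested genes. Most of the 48 genes lie left of the dotted line with both compounds (medians -0.46 and -0.54), while MYC, MAX and NOP10 lie right of it. Ribosomal proteins lie close to the line, and the M5 panel shows small rises that are nearer 0 on library totals.

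Total counts ran from 35110519 to 37520999 per library, and 17009 to 17955 genes had a count. The summed level of 7 keratinocyte markers was 2860 to 2970 CPM untreated, 2140 to 2190 with M5, 2970 to 3060 with lefamulin and 3200 to 3280 with retapamulin. The 7 split, with 4 called higher and 3 lower with each compound against M5. SFN averaged 529 CPM with M5, 1270 with lefamulin and 1470 with retapamulin, and CDH1 338, 650 and 661. KRT5 averaged 637, 454 and 437 CPM, TP63 228, 114 and 86.5, and KRT14 3.43, 0.796 and 0.730. Of 4 fibroblast, 4 leukocyte and 3 endothelial markers, the summed levels per library were 5.19 to 16.9 CPM for fibroblasts, rose from 11.5 to 13.5 untreated to 74.7 to 84.3 with retapamulin for leukocytes, and from 14.6 to 16.7 untreated to 99.8 to 123 in all treated groups for endothelium. CD68 and CDH5 made up nearly all of the last 2 sums, and COL1A1 that of fibroblasts. VWF, a defining endothelial marker, averaged 0.476 CPM untreated, 0.0543 with M5, 2.34 with lefamulin and 2.23 with retapamulin, at most 97 counts, and was called higher with each compound. COL1A1 averaged 7.42, 6.09, 15.9 and 10.2 CPM in the same order. The other defining markers, PTPRC, CD3E, LYZ, PECAM1, COL1A2, DCN and LUM, had at most 3 counts in any library. The part of these markers in the results was not tested.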

How the data were processed

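RNA-seq of 12 HaCaT libraries, 3 in each of 4 groups taken from the sample labels, was analysed from the deposited gene counts. The submitters' processing notes name HISAT2 and HTSeq. The sources used here state no version, genome build or strand setting. The authors also deposited FPKM values for the same genes. In all 20422 genes with a count in at least 2 libraries, the length implied by count and FPKM had a coefficient of variation under 0.001, so both hold the same reads. Libraries held 35110519 to 37520999 counts.

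The count test was edgeR 4.0.16 (quasi-likelihood, R 4.3.3) on all 12 libraries with TMM factors and edgeR's default filter, which kept 14207 of 22545 genes. P-values of each of 6 comparisons were Benjamini-Hochberg adjusted over those genes, and genes under 0.05 were called. CPM are TMM-scaled. On simulated counts the script recovered known changes of about 1.5-fold or more, up or down, for lefamulin against M5. Changes smaller than these were not simulated. Alternatives used DESeq2 1.42.0 and limma 3.58.1. The genes and lists were chosen with earlier results of these data known. By rule, values in every library are given for MYC, MAX and, in each role, the gene with the largest change in each of the first 4 comparisons; of other lists, the largest called rise and fall may be named. Promoter sequences are from RefSeq, GRCh38.p14, and are not tied to the build of the counts.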

Additional observations from a re-analysis of the deposited data

How the results depend on the processing

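Values here are the median log2 fold change of the 48 genes and their counts of calls, in the order M5 against untreated, lefamulin against M5, retapamulin against M5, retapamulin against lefamulin, lefamulin against untreated and retapamulin against untreated, with comparisons that stayed close left out. On library totals the medians were 0.038, -0.509, -0.677, -0.160, -0.462 and -0.638. With limma on log2(FPKM + 1), with or without a filter, they were 0.038, -0.492, -0.630, -0.151, -0.437 and -0.591, and with a pseudocount of 0.1 they were 0.038, -0.507, -0.668, -0.159, -0.460 and -0.631. RLE size factors gave -0.506, -0.035 and -0.340 for the 3 comparisons with retapamulin, and DESeq2 gave -0.507, -0.031 and -0.336. A filter of 1 CPM gave -0.439, -0.506, -0.059, -0.282 and -0.356 for all but M5 against untreated. No filter gave 0.174 with M5 and -0.474 with lefamulin against M5. Fits of the 2 groups alone gave -0.081 for retapamulin against lefamulin and -0.355 for retapamulin against untreated.

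Counts called higher with M5 were 16 on library totals, 15 with limma at either pseudocount, 13 with limma without a filter, and 3 in a test against a fold of 1.2. Those called lower with M5 were 4 on library totals and with limma at a pseudocount of 1, with or without a filter, 5 at 0.1, and 0 against a fold of 1.2. Against a fold of 1.2, genes called higher were 1 with lefamulin against M5, 2 against untreated, 1 for retapamulin against lefamulin and 3 for retapamulin against untreated, and those called lower were 22 with lefamulin against untreated. Library totals and limma gave 2 higher for retapamulin against lefamulin and 3 for retapamulin against untreated. Genes called lower with retapamulin against lefamulin were 7 with RLE factors and DESeq2, 21 in the fit of the 2 groups, 34 on library totals and with limma at 0.1, 33 with limma at 1, 32 with limma without a filter, and 1 against a fold of 1.2.

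Leaving out 1 library at a time, the medians ranged from 0.143 to 0.173, -0.486 to -0.458, -0.554 to -0.523, -0.082 to -0.056, -0.303 to -0.270 and -0.400 to -0.366, and the count called lower with retapamulin against lefamulin from 7 to 12. The replicate numbers were not shown to pair libraries: 18 correlations of same-numbered deviations ran from -0.144 to 0.184, and 4 of 12 libraries correlated best with their own number. A fit with the replicate block gave medians of 0.157, -0.463, -0.540, -0.070, -0.297 and -0.383, and 13 genes lower for retapamulin against lefamulin in place of 12, with no other count moved.

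On library totals the sign turned for 11 of the 48 genes with M5, 1 with lefamulin against M5, 8 in retapamulin against lefamulin and 2 in each comparison of a compound with untreated. Of these, called in the reported fit were HEATR1 with M5 (-0.019), DDX21 against untreated with either compound and RRP12 in retapamulin against untreated (-0.112). Among the genes given in every library they turned for NPM3 (-0.050), NOP56 (-0.076), GAR1 (-0.095), UTP15 (-0.066) and BOP1 (-0.031) with M5. They turned for MYC (-0.068), POLR1A (-0.068), DKC1 (-0.067) and DDX21 (-0.082) in retapamulin against lefamulin, and for DDX21 against untreated (-0.040 with lefamulin, -0.122 with retapamulin). With limma at a pseudocount of 0.1 these were, in the same order, -0.051, -0.076, -0.094, -0.065 and -0.031, then -0.068, -0.066, -0.066 and -0.082, then -0.039 and -0.120. At a pseudocount of 1, with or without a filter, they were -0.050, -0.075, -0.092, -0.058 and -0.031, then -0.066, -0.056, -0.065 and -0.081, then -0.038 and -0.119. Near 0, NPM3 in retapamulin against lefamulin turned with DESeq2 (0.002) and without retapamulin replicate 2 (0.001). DDX21 there turned in the fit of the 2 groups (-0.004), without lefamulin replicate 1 (-0.007) and without retapamulin replicate 2 (-0.002), and MYC without lefamulin replicate 2 (-0.006). GAR1 with M5 turned without untreated replicate 1 (-0.019), and RRN3 in lefamulin against untreated turned without untreated replicate 1 (0.004) and replicate 3 (0.007). Leaving out 1 library at a time, these ranged as follows: GAR1 with M5 -0.019 to 0.065, RRN3 in lefamulin against untreated -0.064 to 0.007, and in retapamulin against lefamulin MYC -0.006 to 0.053, NPM3 -0.096 to 0.001 and DDX21 -0.007 to 0.018. The cause of these changes was not tested. Library totals change the scale set for each library, while the FPKM fits also change the test and use a pseudocount. Depth limits PPAN most, at 8.05 to 9.27 CPM.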
